A study of Mus musculus with 6 samples.

Results

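The genes described here are 4 Id genes, which are classical targets of bone morphogenetic protein (BMP) signalling, and 2 genes for secreted antagonists, Nbl1 and Fst. They were chosen by gene symbol, with earlier results of these data known. Every probe of the deposited value table annotated to Id1, Id2, Id3, Id4, Nbl1 or Fst was taken. This gave 7 of the table's 11097 probes, standing for 6 of its 7774 named genes, with 2 probes for Id2 and 1 for each of the others. The RNA came from endoderm derived from mouse embryonic stem cells of strain R1 that carried a Sox17-GFP construct, and all groups shared the construct, the 6 days of Activin A and Wnt3A, and the sorting of GFP-positive cells. One group was unpassaged (P0, on gelatin), one was passaged 6 times in co-culture with mesenchyme 1, and one was passaged 6 times in co-culture with mesenchyme 2. The labels do not say what tissue either mesenchyme came from. With 2 arrays a group, described by the depositors as technical duplicates, every p-value measures the spread between arrays and not between cultures. P0 also differs from the other groups in substrate and in time in culture, and these cannot be told apart from passage itself.

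BMPs bind paired serine/threonine kinase receptors that phosphorylate SMAD1, SMAD5 and SMAD9, which enter the nucleus with SMAD4 and switch on target genes, the Id genes among them. ID proteins are helix-loop-helix proteins without a DNA-binding region, and they hold back differentiation by pairing with E proteins and keeping them off DNA. Activin and Nodal use other receptors and SMAD2 and SMAD3, and this branch drives the formation of endoderm from pluripotent cells. Follistatin, the product of Fst, binds activin tightly and some BMPs more weakly, and NBL1, also called DAN, is a secreted BMP antagonist of the cystine-knot family.

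Across the 3 groups, the Id1 and Id2 signals were lowest on the mesenchyme 1 arrays and highest on the mesenchyme 2 arrays, with P0 between them. Nbl1 fell 5.95-fold on mesenchyme 1 and did not pass the test between mesenchyme 2 and P0. Its mesenchyme 1 values lie at the bottom of the table, and its fall was 2.98-fold with 16 added to every intensity. With 50 added it was 1.87-fold, short of the limit. Fst rose 10.3-fold on mesenchyme 2. Between the cultures on the different mesenchymes, 5 of the 7 probes (Id1, both Id2 probes, Nbl1 and Fst) were higher on mesenchyme 2 and none was lower. Of all probes, 25.8% were called in that comparison and 13.5% were higher. A probe was counted as changed at a limma adjusted p under 0.05 together with a fold change of at least 2.

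**Figure D1:**
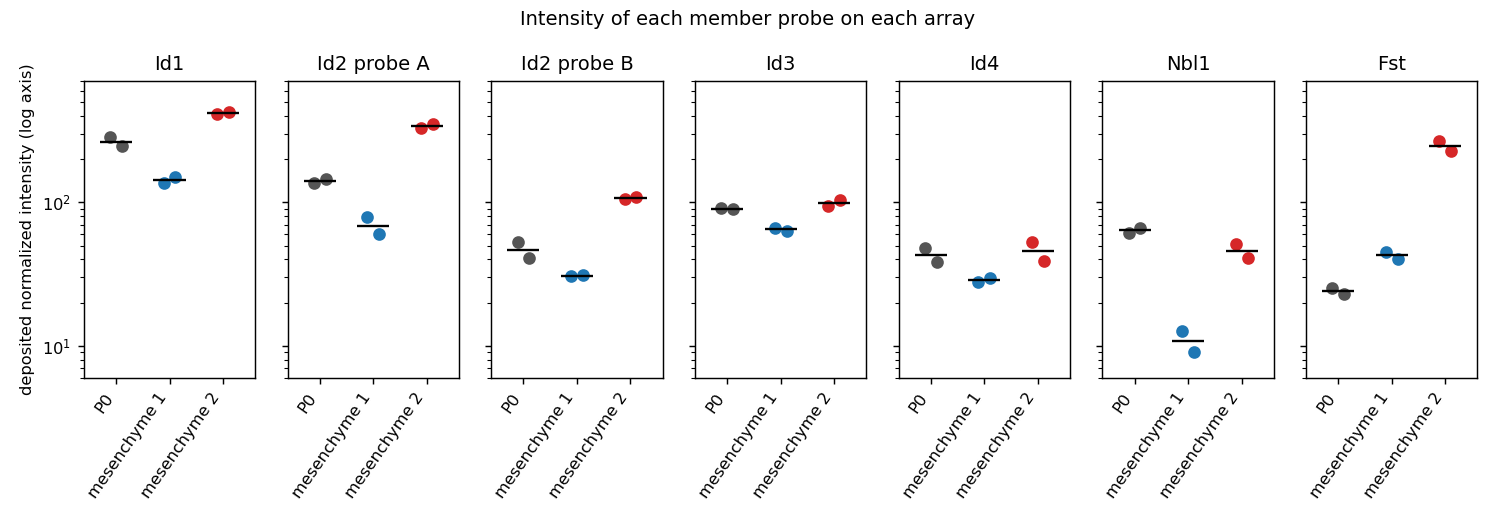
Deposited normalized intensity (log axis) of the 7 member probes on each of the 6 arrays, 2 points per group, with the geometric mean of the group as a bar. Id1 and both Id2 probes are lowest on mesenchyme 1 and highest on mesenchyme 2, Nbl1 is low on mesenchyme 1 only among the 3 groups, and Fst stands at 230 and 269 on mesenchyme 2 against 23.0 to 45.1 on the other arrays.

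The RNA of the groups differed widely outside these genes as well, and log2 values of all probes correlated at 0.993 to 0.994 within groups, 0.959 to 0.960 between P0 and mesenchyme 1, 0.906 between P0 and mesenchyme 2 and 0.875 between the cultures on the different mesenchymes. Of 12 definitive endoderm markers, 7 had a probe, and Sox17, the gene behind the reporter, stood at 96.5 in P0, 81.8 on mesenchyme 1 and 701 on mesenchyme 2. On mesenchyme 2 against P0, 4 of the 7 rose (Sox17, Gata4, Gata6 and Cldn6) and none fell. The 3 not called were Foxa1, Hhex and Cdh1, with differences of -0.50, 0.10 and 0.11. On mesenchyme 1 against P0, Gata6 rose by 1.13, Foxa1 fell, with a difference of -1.32, and 5 were not called. Foxa2, Cxcr4 and Epcam had no named probe in the analysed table, so endoderm identity was checked only in part. Over all genes, 5.48% were called between mesenchyme 1 and P0, and 18.7% between mesenchyme 2 and P0. All 10 pluripotency markers had a probe. On mesenchyme 2 against P0, 1 rose (Klf4), 4 fell (Pou5f1, Utf1, Tdgf1 and Zfp42) and 5 were not called, Nanog and Esrrb among them. On mesenchyme 1 against P0, Klf4 fell and the other 9 were not called. Pou5f1 was at 2833 in P0, at 2280 on mesenchyme 1 and at 1018 on mesenchyme 2, and Klf4 at 388, 153 and 1229 in the same order. All 13 measured markers of extraembryonic endoderm were higher on mesenchyme 2 than in P0, with summed intensities of 6573 and 6717 on the P0 arrays, 6532 to 6794 on mesenchyme 1 and 38300 and 38930 on mesenchyme 2. On mesenchyme 1 against P0, 4 of the 13 rose (Amn by 1.76, Afp by 1.32, Lama1 by 1.23 and Pdgfra by 1.06), 1 fell (Sparc, with a difference of -1.07) and 8 were not called. Of 17 listed markers of mesenchyme, 7 had a probe, and Col1a1, Col3a1 and Pdgfrb were among those without one. None of the 7 was called in any comparison. Vim came close on mesenchyme 2 against P0, at -0.98 (1.98-fold, limma adjusted p = 0.00028), and Thy1 was higher by 0.90 on mesenchyme 2 than on mesenchyme 1. The sum of the 7 was 3681 and 4099 in P0, 4671 and 5173 on mesenchyme 1 and 5012 and 5187 on mesenchyme 2. Most of it was Acta2, at 3212, 4298 and 4662 in the same order of groups. Whether the rises of Sox17, Gata4, Gata6 and Cldn6 on mesenchyme 2 belong to definitive or to extraembryonic endoderm was not tested. The part of extraembryonic endoderm or mesenchyme in the results below was not tested either. In RNA from many cells, fewer cells that express a gene and less RNA per cell cannot be told apart.

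Id1, the best known immediate target of BMP receptors in many cell types, gave intensities of 284 and 248 on the P0 arrays, 137 and 150 on mesenchyme 1 and 414 and 425 on mesenchyme 2. No array of one group overlapped another group's range. The log2 difference between mesenchyme 2 and mesenchyme 1 was 1.55 ± 0.107 (standard error of the limma fit, n = 2 arrays a group), a 2.92-fold change with an adjusted p of 3.1e-05. Against P0, mesenchyme 1 differed by -0.89 ± 0.107 (adjusted p = 0.00144 in limma) and mesenchyme 2 by 0.66 ± 0.107 (adjusted p = 0.00179), and both missed the 2-fold limit. Each pair of groups therefore differed by more than the spread between duplicates, while only mesenchyme 2 against mesenchyme 1 reached 2-fold.

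Id2, the family member with broad roles in epithelia and lymphoid cells, was read by 2 probes annotated to the same RefSeq transcript, here called probe A for the brighter one and probe B for the dimmer one. Probe A stood at 137 and 145 in P0, at 78.9 and 60.3 on mesenchyme 1 and at 331 and 351 on mesenchyme 2. Probe B stood at 53.1 and 41.1, at 30.7 and 31.1 and at 106 and 108 in the same order. Neither probe had overlapping arrays between any pair of groups, and both gave the same order of groups. On mesenchyme 2, Id2 rose above P0 by 1.28 ± 0.14 (2.43-fold, limma adjusted p = 0.000314) on probe A and by 1.20 ± 0.132 (2.30-fold, adjusted p = 0.000325) on probe B. Above mesenchyme 1 it was higher by 2.31 ± 0.14 (4.95-fold) on probe A and 1.80 ± 0.132 (3.48-fold) on probe B.

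The probes of Id2 parted on mesenchyme 1. Probe A fell by 1.03 ± 0.14 against P0 (2.04-fold, limma adjusted p = 0.00212), just past the limit, and probe B differed by -0.60 ± 0.132 (1.51-fold, adjusted p = 0.0112). The call of probe A rested on single arrays: without P0 replicate 2 it stood at -0.99, and without mesenchyme 1 replicate 2, the dimmer array, at -0.83, each short of 2-fold.

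Id3 and Id4, which complete the family, moved less. Id3 stood at 90.8 and 90.1 in P0, 66.3 and 63.3 on mesenchyme 1 and 95.0 and 103 on mesenchyme 2. On mesenchyme 1 it was below P0, with a difference of -0.48 ± 0.0927 (limma adjusted p = 0.007), and mesenchyme 2 exceeded mesenchyme 1 by 0.61 ± 0.0927 (adjusted p = 0.00104), with both differences under 2-fold. Between mesenchyme 2 and P0 the difference of Id3 was 0.13, with a 95% interval of -0.09 to 0.35. Id4 stood at 48.1 and 38.2 in P0, 28.0 and 29.9 on mesenchyme 1 and 53.4 and 38.9 on mesenchyme 2. The P0 and mesenchyme 2 arrays of Id4 overlapped, and that difference was 0.09 with a 95% interval of -0.34 to 0.51. Mesenchyme 1 lay below both other groups for Id4 on every array, with a difference of -0.57 ± 0.178 against P0 (limma adjusted p = 0.0381). The intervals of Id3 and Id4 against P0 lay within 2-fold in both cultures. For Id4 on mesenchyme 1 this was narrow, at -0.99 to -0.14. These intervals measure the spread between arrays and not between cultures.

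Nbl1 showed another pattern. Its intensities were 61.3 and 66.8 in P0, 12.8 and 9.06 on mesenchyme 1 and 51.6 and 40.9 on mesenchyme 2. The mesenchyme 1 arrays lay far below all the others, and the P0 and mesenchyme 2 arrays did not overlap either. Nbl1 fell by 2.57 ± 0.187 on mesenchyme 1 (5.95-fold, limma adjusted p = 0.000349). It was higher on mesenchyme 2 than on mesenchyme 1 by 2.10 ± 0.187 (4.27-fold, adjusted p = 8.95e-05). Between mesenchyme 2 and P0 it differed by -0.48 ± 0.187 (adjusted p = 0.0603) and did not pass.

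The size of the fall of Nbl1 depends on intensities at the bottom of the table. Its mesenchyme 1 values were brighter than 1.94% and 0.153% of the probes on those arrays, and without detection calls it is not known whether they lie above background. With 16 added to every intensity the fold against P0 was 2.98, and with 50 added it was 1.87, short of the limit. Mesenchyme 2 against mesenchyme 1 stood at 2.31-fold and 1.58-fold in the same settings.

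Fst, whose product neutralises activin, stood at 25.3 and 23.0 in P0, at 45.1 and 40.6 on mesenchyme 1 and at 269 and 230 on mesenchyme 2. The groups did not overlap, and P0 was the lowest, unlike for the Id genes and Nbl1, where mesenchyme 1 was. Fst rose on mesenchyme 2 by 3.36 ± 0.118 against P0 (10.3-fold, limma adjusted p = 5e-06), which was rank 60 among the absolute differences of all probes. It was higher than on mesenchyme 1 by 2.54 ± 0.118 (5.80-fold, adjusted p = 7.72e-06). Mesenchyme 1 exceeded P0 by 0.83 ± 0.118 (1.77-fold, adjusted p = 0.00251) and missed the limit. The P0 values were brighter than 10.8% and 9.19% of probes, and with 16 or 50 added the 10.3-fold rise stood at 6.58-fold and 4.02-fold.

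**Figure D2:**
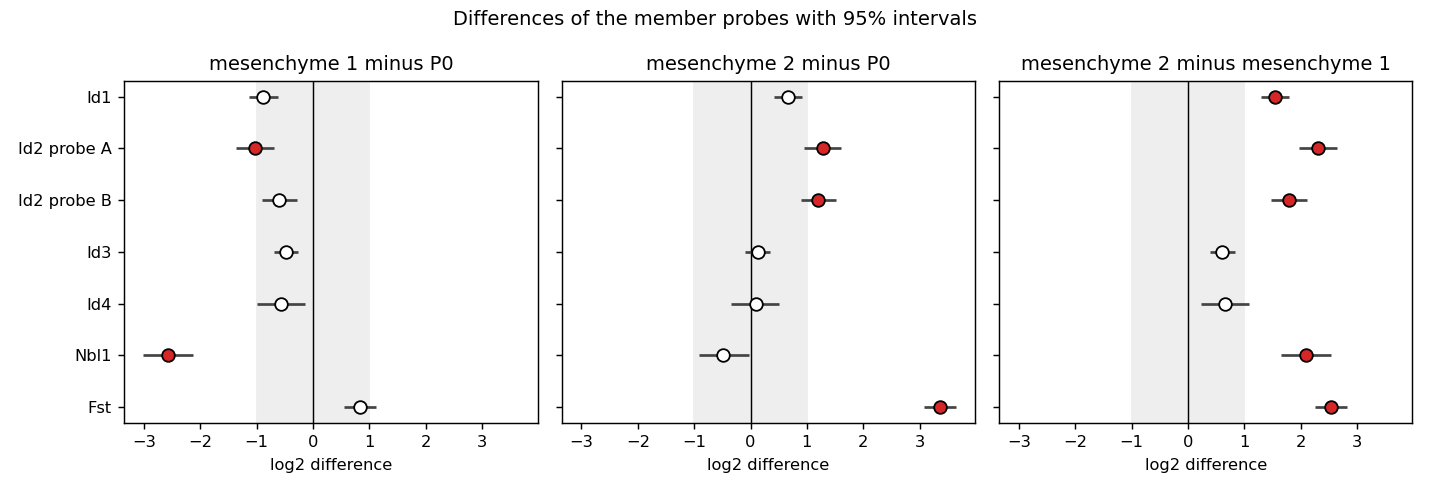
Log2 differences of the 7 member probes in the 3 comparisons with 95% intervals of the limma fit; filled points passed the adjusted p and 2-fold rule, and the grey band spans less than 2-fold. On the right, all 7 points lie above 0, from 0.61 for Id3 to 2.54 for Fst.

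Against the background of these comparisons, the counts read as follows. The members were chosen with earlier results of these data known, so the counts cannot test whether they stand out. Id2 is counted through 2 probes. Between mesenchyme 1 and P0, 2 of the 7 member probes were called, both lower (Id2 probe A and Nbl1), where 6.02% of all probes were called and 2.75% were lower. Between mesenchyme 2 and P0, 3 were called, all higher (both Id2 probes and Fst), where 18.3% of all probes were called and 9.66% were higher. Between mesenchyme 2 and mesenchyme 1, 5 were called, all higher, where 25.8% of all probes were called and 13.5% were higher. By adjusted p alone, 7, 4 and 7 of the member probes passed in these comparisons, where 46.1%, 62.7% and 68.6% of all probes did. The median log2 difference of the members was -0.60, 0.66 and 1.80, beside -0.01, 0.01 and -0.01 over all probes. The arrays of the groups compared did not overlap for 7, 6 and 7 member probes, where 75.2%, 82.4% and 84.8% of all probes did not. The comparisons with P0 share the P0 arrays, so their values are not independent of each other.

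For 4 of the 6 genes (Id2, Id3, Id4 and Nbl1) a promoter was available in RefSeq (mouse build GRCm38.p6), as 250 bases before and 50 bases after the annotated start, and those of Id1 and Fst are not shown. They are given because Id2 and Nbl1 moved between the mesenchymes while Id3 and Id4 moved by less than 2-fold. The windows are chr12:25096043-25096342 on the minus strand for Id2, chr4:136143572-136143871 on the plus strand for Id3, chr13:48260866-48261165 on the plus strand for Id4 and chr4:139092921-139093220 on the minus strand for Nbl1. Capitals mark GGCGCC, a GC-rich sequence that SMAD proteins can bind, which reads the same on both strands.
Id2: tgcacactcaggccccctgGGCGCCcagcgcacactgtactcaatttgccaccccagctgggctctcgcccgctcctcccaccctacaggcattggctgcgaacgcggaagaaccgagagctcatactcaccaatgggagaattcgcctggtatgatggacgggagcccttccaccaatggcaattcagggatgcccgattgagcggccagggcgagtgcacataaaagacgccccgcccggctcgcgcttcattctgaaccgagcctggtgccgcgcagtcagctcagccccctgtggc
Id3: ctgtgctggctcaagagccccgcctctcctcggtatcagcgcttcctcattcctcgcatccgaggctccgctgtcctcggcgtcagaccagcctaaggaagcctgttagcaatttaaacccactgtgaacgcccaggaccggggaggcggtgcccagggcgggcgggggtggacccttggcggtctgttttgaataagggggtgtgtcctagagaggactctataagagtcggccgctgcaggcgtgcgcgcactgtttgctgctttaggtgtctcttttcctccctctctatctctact
Id4: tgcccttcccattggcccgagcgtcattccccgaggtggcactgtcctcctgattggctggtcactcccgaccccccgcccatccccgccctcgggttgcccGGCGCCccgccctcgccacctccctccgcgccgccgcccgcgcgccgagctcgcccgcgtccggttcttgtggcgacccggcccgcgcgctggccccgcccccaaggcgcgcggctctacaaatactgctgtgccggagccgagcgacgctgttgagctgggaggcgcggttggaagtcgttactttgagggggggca
Nbl1: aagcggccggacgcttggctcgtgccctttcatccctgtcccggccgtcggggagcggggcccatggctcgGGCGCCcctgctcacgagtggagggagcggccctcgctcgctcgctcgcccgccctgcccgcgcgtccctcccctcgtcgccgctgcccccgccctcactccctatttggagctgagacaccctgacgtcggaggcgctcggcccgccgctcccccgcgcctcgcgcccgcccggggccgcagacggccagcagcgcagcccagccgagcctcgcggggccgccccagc
GGCGCC occurred 1 time each in Id2, Id4 and Nbl1 and not in the Id3 window, and 12.0% of 27025 promoters of the same length hold it. Its first base lay 231 bases before the start in Id2, 148 in Id4 and 179 in Nbl1. The short SMAD motif AGAC (GTCT on the other strand) occurred 1 time in Id2, 3 times in Id3, 0 times in Id4 and 2 times in Nbl1, and 88.0% of promoters hold it. Id4 has GGCGCC and was not called in any comparison, and whether the motif bears on the calls was not tested. The GC content of the windows was 60.0% to 78.3%, against a median of 52.7% over all promoters.

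The other genes of these pathways were taken from lists of 116 genes outside the members, of which 50 had a probe. Of these 50, none rose and 4 fell on mesenchyme 1 against P0, 7 rose and 13 fell on mesenchyme 2 against P0, and 9 were higher and 7 lower on mesenchyme 2 than on mesenchyme 1. Over all genes, 5.48%, 18.7% and 25.4% were called in the same comparisons. The medians of the 50 genes were 0.04, -0.07 and 0.04, beside -0.02, 0.02 and 0.02 over all genes.

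Among the ligands, Bmp4 was the only BMP of 16 listed with a probe. It stood at 652 and 637 in P0, 419 and 412 on mesenchyme 1 and 370 and 353 on mesenchyme 2. The arrays of the groups did not overlap, and P0 was highest, with differences of -0.63 ± 0.0872 on mesenchyme 1 and -0.83 ± 0.0872 on mesenchyme 2 (limma adjusted p = 0.00222 and 0.000261), both under 2-fold. Of 4 activin, Nodal and TGF-beta ligands measured, Gdf3 and Nodal fell on mesenchyme 2 against P0, with differences of -2.16 ± 0.0887 and -1.56 ± 0.0878. Neither was called on mesenchyme 1, where Nodal differed by 0.30 (limma adjusted p = 0.0292) and Gdf3 by -0.22 (adjusted p = 0.0863). Inhbb, which encodes an activin subunit, was at 193 in P0, at 121 on mesenchyme 1 and at 99.1 on mesenchyme 2. Against P0 it missed only the 2-fold limit, at 1.59-fold on mesenchyme 1 and 1.94-fold on mesenchyme 2 (limma adjusted p = 0.013 and 0.00176). It was not called between the mesenchymes.

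Of 10 receptors and co-receptors, none was called on mesenchyme 1, and 3 rose and 1 fell on mesenchyme 2 against P0, where 18.7% of all genes were called. Acvr1, a type I receptor for BMPs, rose by 1.37 ± 0.0905, from 112 to 290. Tgfbr2 and Tgfbr3, which bind TGF-beta, rose by 1.90 ± 0.0897 and 1.59 ± 0.129. Tdgf1, the co-receptor of Nodal, fell by 2.52 ± 0.0949. Bmpr1a, the type I receptor best known for BMP4, was at 433 in P0 and at 544 in both cultures and was not called.

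Of 12 SMADs and intracellular regulators, 1 rose on mesenchyme 2 against P0 and none was called on mesenchyme 1. Over all genes, 18.7% and 5.48% were called in these comparisons. The riser was Tob1, which can restrain BMP SMADs, at 1.01 ± 0.144, just past the limit. Without P0 replicate 1 it stood at 0.84, and without mesenchyme 2 replicate 2 at 0.90, each short of 2-fold, as it was at 0.91 with 16 added. Skil, a SMAD corepressor that activin signalling induces, was lower on mesenchyme 2 than on mesenchyme 1, with a difference of -1.42 ± 0.0978 and stood at 468 and 509 in P0, 875 and 848 on mesenchyme 1 and 336 and 308 on mesenchyme 2. Smad1, Smad4 and Smad5, the transducers of BMP signals in this set, differed from P0 by 0.08 to 0.66 on mesenchyme 2 and were not called. Smad1 and Smad4 missed only the 2-fold limit (limma adjusted p = 0.000723 and 0.000762). Smad6, an inhibitory SMAD that BMP induces, stood at 41.4, 32.7 and 52.4 and was not called either.

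Of 10 secreted antagonists and modulators besides Nbl1 and Fst, 3 rose and 2 fell on mesenchyme 2 against P0, where 18.7% of all genes were called. Each of the changed genes (Crim1, Bmper, Htra1, Lefty1 and Lefty2) passed in the same direction against mesenchyme 1. Crim1, a membrane protein with BMP-binding repeats, stood at 8.27 and 10.9 in P0, 15.1 and 12.3 on mesenchyme 1 and 183 and 165 on mesenchyme 2. Bmper, a BMP-binding modulator, stood at 16.7 and 21.9, at 34.4 and 25.5 and at 153 and 176. In both, only the mesenchyme 2 arrays stood high, with rises of 4.19 ± 0.165 and 3.10 ± 0.189 against P0 (limma adjusted p = 6.9e-06 and 3.08e-05). Their P0 values lie at the bottom of the table: with 16 or 50 added, the rise of Crim1 went from 18.3-fold to 7.43-fold and 3.76-fold, and that of Bmper from 8.57-fold to 5.11-fold and 3.09-fold. Lefty1 and Lefty2, inhibitors of Nodal, fell, with differences of -5.14 ± 0.103 and -3.52 ± 0.101, which sets them opposite to Fst on the same arrays. Lefty1 was dim on mesenchyme 2, at 22.4 and 24.3, and its fall of 35.3-fold went to 21.3-fold and 11.9-fold with 16 or 50 added. Chrd, the BMP antagonist chordin, stood at 62.5, 56.3 and 70.9 and was not called.

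Several other genes that respond to BMP fell in the passaged cultures. Of 8 measured, 4 fell on mesenchyme 1 against P0 and none rose, and 6 fell on mesenchyme 2 against P0 and none rose, where 2.86% and 8.46% of all genes were lower. Gata2 stood at 93.2 and 78.8 in P0, 12.9 and 16.8 on mesenchyme 1 and 30.7 and 43.9 on mesenchyme 2. Like Id1 and Id2, it was lowest on mesenchyme 1, but here P0 was the highest group. Gata2, Gata3 and Dlx3, regulators of trophoblast and surface ectoderm, fell on mesenchyme 1, with differences of -2.54 ± 0.205, -2.30 ± 0.304 and -2.34 ± 0.218, and on mesenchyme 2, with -1.22 ± 0.205, -1.04 ± 0.304 and -1.11 ± 0.218. Tfap2a fell too, with differences of -1.32 ± 0.145 and -1.57 ± 0.145. Hey1 and Tfap2c were called lower on mesenchyme 2 alone, at -1.35 ± 0.123 and -1.29 ± 0.0896 against P0. Tfap2c stood at 1092 in P0 and 446 on mesenchyme 2, and Hey1 at 59.8 and 23.5. The signals of Gata2, Gata3, Dlx3 and Tfap2a were low in the passaged cultures. With 16 added, they stood at -0.94, -0.87, -0.80 and -0.95 on mesenchyme 2, each short of 2-fold. On mesenchyme 1, Tfap2a stood at -0.82 with 16 added and lost its call, while Gata2, Gata3 and Dlx3 went from 5.82-fold, 4.91-fold and 5.06-fold to 3.30-fold, 3.30-fold and 2.73-fold. With 50 added, Gata2 and Gata3 stood at 2.09-fold and 2.24-fold there, and Dlx3, at 1.78-fold, lost its call. On mesenchyme 2 against P0, Gata2 stood at -0.97 without mesenchyme 2 replicate 1. In that comparison with P0, Gata3 stood at -0.92 without P0 replicate 2 and at -0.91 without mesenchyme 2 replicate 2. Without P0 replicate 1, Gata3 stood at -1.17 with an adjusted p above the threshold.

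Of 7 genes that respond to activin and Nodal, none was called on mesenchyme 1 and 5 fell on mesenchyme 2 against P0, where 8.46% of all genes were lower. They were Lefty1, Lefty2, Tdgf1, Nodal and Eomes, the first 4 of which also stand in the lists above. Of 4 helix-loop-helix partners of ID proteins with a probe, Tcf15 fell by 1.81 ± 0.105 on mesenchyme 2 (2.28-fold with 50 added), and Tcf4, an E protein, stood at 404, 533 and 519 and was not called.

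**Figure D3:**
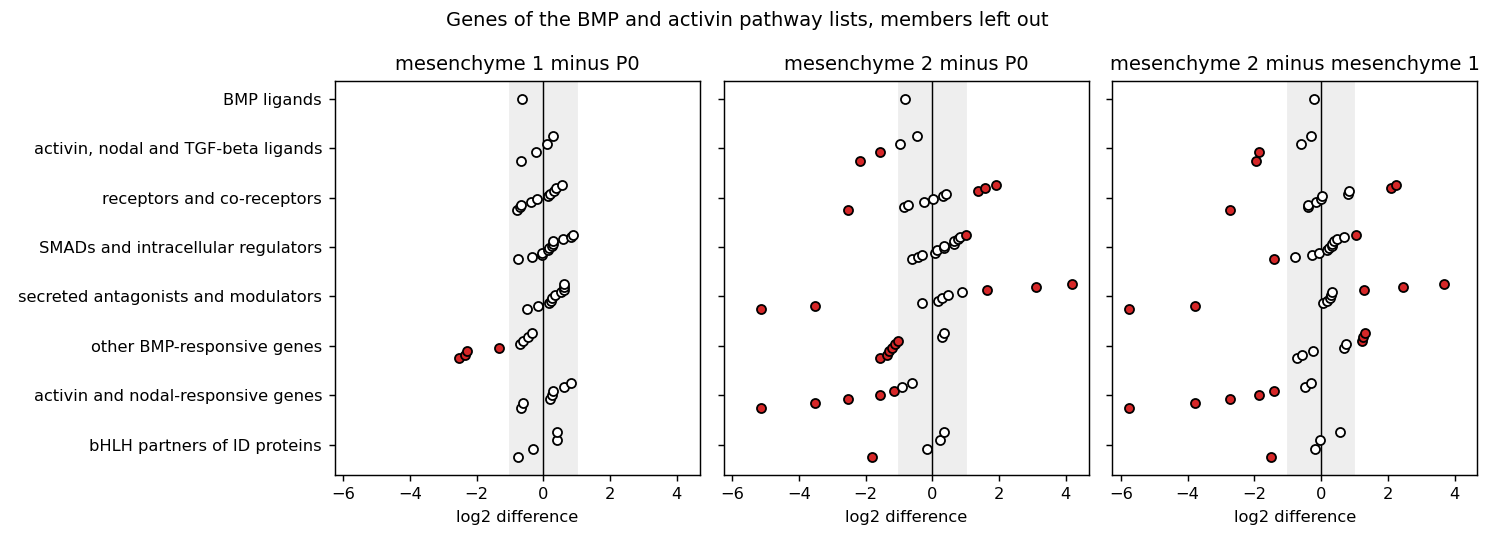
Log2 differences of the measured genes of 8 pathway lists in the 3 comparisons, 1 point per gene, with members left out; filled points passed the adjusted p and 2-fold rule, the grey band spans less than 2-fold, and a gene may stand in several lists. On mesenchyme 1 the only filled points are 4 other BMP-responsive genes, while on mesenchyme 2 the secreted antagonists spread from -5.14 (Lefty1) to 4.19 (Crim1).

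For each member gene the 3 most similar profiles were found as the smallest Euclidean distance between log2 values centred on the mean of each gene, over 6 arrays and 6127 named genes with a mean intensity of at least 50. The profile of Id1 was nearest to Arhgap8, Bri3 and Manbal, at distances of 0.0963 to 0.18. That of Id2 was nearest to Elmo3, Amdhd2 and Cldn6, at 0.282 to 0.283, and that of Id3 to Spryd4, Znrd1 and Tsg101, at 0.0459 to 0.0961. Nbl1 was nearest to Sct, Rhox6 and Hspb8, at 0.306 to 0.513, and Fst to Psg23, Prss35 and Pdgfra, at 0.36 to 0.416. Id4 was nearest to Siva1, Slc39a11 and Nkiras2, at 0.274 to 0.292.  Nbl1 and Id4 lie below that intensity and could not be listed for another member. With 3 groups, many genes can share a profile, and the distances describe these arrays only.

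The dependence on low intensities was shown by the differences with a constant added. Between the mesenchymes, Id1 went from 1.55 to 1.28 with 50 added, and Id2 probe A from 2.31 to 1.71 (4.95-fold to 3.28-fold), and both stayed above 2-fold. Id2 probe B stood at 0.96 in that setting and lost its call. Its rise on mesenchyme 2 against P0 was short of 2-fold with 16 added, at 0.97, and with 50 added, at 0.70. Id2 probe A against P0 on mesenchyme 1 fell short already with 16 added, at -0.88.

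**Figure D4:**
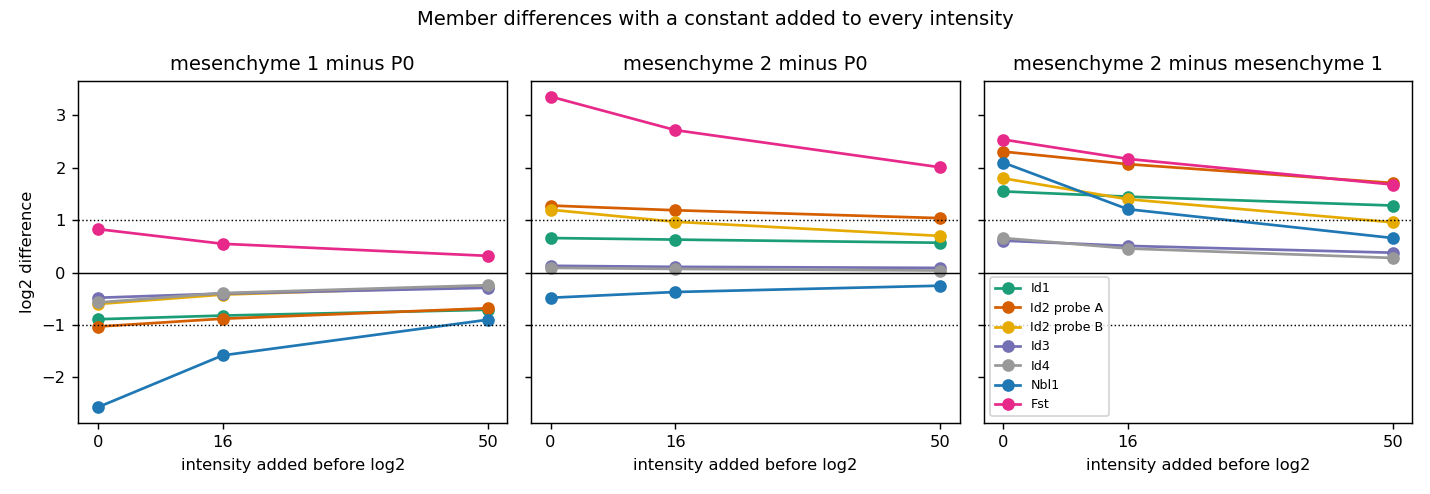
Log2 difference of each member probe in the 3 comparisons with 0, 16 or 50 added to every intensity before log2; dotted lines mark a 2-fold change. The steepest line on mesenchyme 1 is that of Nbl1, from -2.57 to -0.90, and Fst on mesenchyme 2 goes from 3.36 to 2.01 and stays above 2-fold.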

How the data were processed

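Messenger RNA of 6 samples was measured on 1-colour Illumina mouse bead arrays, with biotin as the label. The values used are the authors' deposited normalized intensities, on a linear scale and not centred per probe. Per the submitters' processing notes BeadStudio was used, without further detail; how background was corrected, how arrays were normalized and how probes were kept is not given in the sources used here. The table holds 11097 of the 25697 probes (43.2%) listed in a scanner table, whose 12 columns of values match no sample label and were not used. Array medians lay between 127.6 and 135.5. The number of arrays limits the precision.

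Probes were named through the platform annotation (1 symbol for 10475 probes, none for 622). Log2 intensities of all 11097 probes were fitted with limma 3.58.1 (R 4.3.3) with 1 mean per group over 6 arrays, with 3 residual and 3.7 prior degrees of freedom. Tests were two-sided, with Benjamini-Hochberg adjustment over all probes of a comparison; intervals are 95%. List genes were counted through their brightest probe by mean log2 intensity. Of 17 further probes of 12 list genes, none was called in the opposite direction, but some were called where the brightest probe was not: 1 of Bmp1 on mesenchyme 1 against P0 (-1.15), and 2 of Bmp1 (1.22 and 1.03) and 1 of Tfap2c (-1.09) between the mesenchymes. The fit was tested on simulated data. The text names every member probe, and up to 4 called genes per list by the largest difference, or its 2 brightest where none was called. Inhbb, Bmpr1a, Smad1, Smad4, Smad5, Smad6, Chrd, Htra1, Eomes, Tcf4, Bmp1, Hey1 and Tfap2c were named after their values were seen. So were Sox17 and the other endoderm, pluripotency, extraembryonic and mesenchyme markers. Members and lists were chosen with earlier results of these data known. Alternatives tried were 2 added constants, 2 scalings, a filter on low values, 1 probe per gene, 2 other call rules, the replicate block and leaving out each array.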

Additional observations from a re-analysis of the deposited data

Results flagged for a closer look

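The cultures passaged 6 times differed, by the limma test of mesenchyme 2 minus mesenchyme 1, for 5 member probes. The log2 differences were 2.54 for Fst, 2.31 for Id2 probe A, 2.10 for Nbl1, 1.80 for Id2 probe B and 1.55 for Id1. Of these, Id2 probe A was called lower than P0 on mesenchyme 1 and higher than P0 on mesenchyme 2. Its fall on mesenchyme 1 was short of 2-fold with 16 added (-0.88), without P0 replicate 2 (-0.99) and without mesenchyme 1 replicate 2 (-0.83). Probe B, at -0.60, was not called there. Among the other named pathway genes the same test gave higher values on mesenchyme 2 for Crim1 (3.68), Bmper (2.47), Tgfbr3 (2.26), Tgfbr2 (2.11), Gata2 (1.32), Gata3 (1.26), Dlx3 (1.23) and Tob1 (1.05). It gave lower values for Lefty1 (-5.76), Lefty2 (-3.78), Tdgf1 (-2.72), Gdf3 (-1.94), Nodal (-1.86), Tcf15 (-1.50) and Skil (-1.42). Of all probes, 25.8% were called in this comparison. With 16 added to every intensity, Gata2 (0.78), Gata3 (0.85), Dlx3 (0.65) and Tob1 (0.94) fell short of 2-fold, and with 50 added Nbl1 (0.66), Id2 probe B (0.96) and Tcf15 (-0.95) did too. Single arrays decided 3 of the calls between the mesenchymes. Dlx3 stood at 0.87 without mesenchyme 1 replicate 2. Gata3 stood at 0.75 without mesenchyme 1 replicate 1, and at 1.12 without mesenchyme 2 replicate 1, where its adjusted p no longer passed. Tob1 stood at 0.99 without mesenchyme 1 replicate 1 and at 0.94 without mesenchyme 2 replicate 2.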

How the results depend on the processing

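Between mesenchyme 1 and P0, the 2 member calls became 1 with 16 added, when dim probes (mean under 50) were left out, and in a test against a 2-fold change, 0 in limma with 50 added, where all 7 still had an adjusted p under 0.05, and 7 with no fold limit. Leaving out single arrays gave 1 to 2. The 4 pathway gene calls became 2 with 50 added, 1 without dim probes, 2 in the test against 2-fold and 30 with no fold limit, and leaving out arrays gave 4 to 6. Between mesenchyme 2 and P0, the 3 member calls became 2 with 16 or 50 added, where Id2 probe B fell to 0.97 and 0.70, and 1 in the test against 2-fold, and the 20 pathway gene calls became 13 with 16 added, 13 with 50 added, 13 in the test against 2-fold and 41 with no fold limit. Between the mesenchymes, the 5 member calls became 3 with 50 added, and the 16 pathway gene calls became 33 with no fold limit. Pathway calls were also lost there: Gata2 (0.78), Gata3 (0.85), Dlx3 (0.65) and Tob1 (0.94) fell short with 16 added. Tcf15 (-0.95) fell short with 50 added. Nbl1, Gata2 and Dlx3 were not tested when dim probes were left out. The cause was not tested, apart from the fold limit itself. Direction turned without single arrays for 2 differences near 0 that were never called: Id4 between mesenchyme 2 and P0 ranged from -0.14 to 0.32, and Tob1 between mesenchyme 1 and P0 from -0.21 to 0.14. Centring arrays on their medians or quantile normalization moved member differences by at most 0.09. With the replicate number as a block the member calls were 2, 3 and 5 and the pathway calls 4, 20 and 16; deviations of same-numbered arrays correlated at -0.0153 to 0.00916, so the numbers do not pair the arrays. The scanner table with detection p-values was not run, since its columns match no label.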
